A study of Mus musculus with 14 samples.

Results

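The response of the kidney transcriptome to diabetes was examined in mice that lack complement factor B, by comparing 4 Cfb-/- diabetic mice with 3 Cfb-/- control mice. These are 7 of the 14 kidney samples of the study, which also holds 4 WT diabetic and 3 WT control mice, and they were chosen by genotype. All mice were C57BL/6J males. The Cfb-/- diabetic mice received a high-fat diet with 60% of calories from fat and streptozotocin (STZ), a toxin of pancreatic beta cells, at 60 mg/kg for 5 days, whereas chow with 10% of its calories as fat was fed to the Cfb-/- control mice, which were injected with citrate buffer alone. The WT groups had the same diets and injections. The labels give 34 weeks for every sample without saying from when. Their genotype field reads knockdown where the protocol says knockout, and their treatment field is the same for control and diabetic mice, so the groups rest on sample names, diet, and the disease field. Factor B is missing from every cell of these mice, in controls as well as in diabetic mice, and diet and STZ were given together, so their effects cannot be told apart. The labels give no identifiers of animals, and p-values measure the spread between these samples.

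Factor B is the serine protease of the alternative complement pathway. It binds cleaved C3 and forms the convertase that cleaves more C3, an amplification loop that is lost without it. The proximal tubule takes back filtered glucose, phosphate, and protein, and injured tubule cells, infiltrating leukocytes, and matrix-producing cells are known features of advanced diabetic kidney disease.

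The authors deposited 1 value per gene and mouse for 21878 genes as FPKM, fragments per kilobase of transcript scaled to the mapped fragments of the library, a level adjusted for transcript length and depth. A gene was tested where 3 or more of the 7 mice had an FPKM of 1 or above, which left 11640. The test was limma on log2(FPKM + 0.1), and a gene was called at a Benjamini-Hochberg adjusted p under 0.05 over all tested genes. A log2 fold change is the diabetic minus the control mean on that scale, which understates the change of genes with low FPKM. The number of reads is unknown. Relative depth, read from the steps between low values, was 0.927 to 1 in Cfb-/- diabetic and 0.844 to 0.970 in Cfb-/- control mice. Summed FPKM was 330428 to 341160 in the diabetic mice and 372884 to 394445 in the controls. The tissue markers of kidney were present in each mouse, with Umod at 483 FPKM or more.

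The deleted gene was examined first. Cfb (chr17:34856374-34862514, GRCm38.p6) was measured at 1.38, 1.43, 1.13, and 1.42 FPKM in the diabetic and 2.20, 2.22, and 2.05 FPKM in the control mice. WT mice ranged from 56.7 to 131 FPKM, so that each Cfb-/- mouse lay below each WT mouse (exact two-sided permutation p = 0.000583, the smallest possible for 7 against 7). Within the Cfb-/- mice, the residual signal was lower in diabetes (log2 fold change -0.66, SE 0.15, adjusted p 0.00984).

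Diabetes changed a large share of the Cfb-/- kidney transcriptome. Of the 11640 genes, 2933 (25.2%) were higher and 843 (7.24%) lower in Cfb-/- diabetic mice. Over 2-fold, 1220 genes (10.5%) were higher and 193 (1.66%) lower. Higher genes thus made up 77.7% of the calls, and the middle log2 fold change over the tested genes was 0.17. This excess depended on scaling, since median-ratio scaling moved the median to -0.01 with 2080 genes higher and 1727 lower, and quantile normalization moved it to -0.06 with 1585 and 1576. Without the first control mouse 541 genes were lower. A single transcript, Kap, made up 10.6 to 11.4% of summed FPKM in Cfb-/- control mice and 1.98 to 3.65% in Cfb-/- diabetic mice. Leaving Kap out of the totals gave 3340 higher and 667 lower genes. In the main test, 3665 of the 3776 called genes did not overlap between groups, so separation of the groups adds little to a call.

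**Figure D1:**
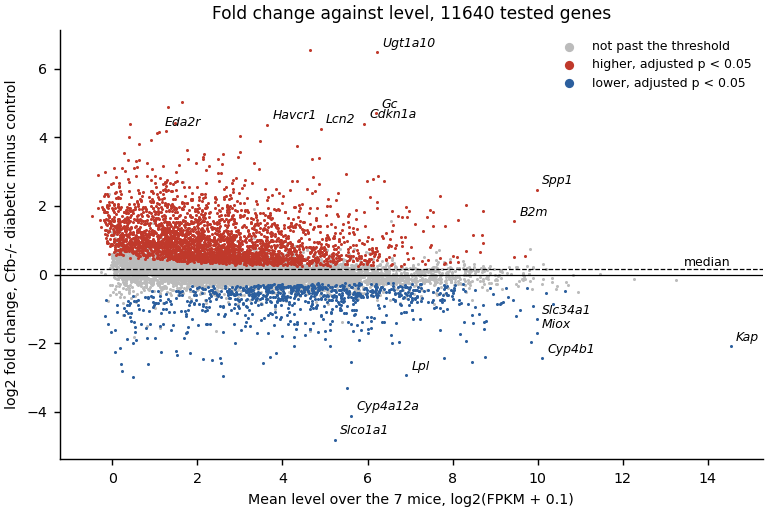
Each point is a tested gene, with its mean level over the 7 Cfb-/- mice on the x axis, in log2(FPKM + 0.1), and its log2 fold change, diabetic minus control, on the y axis. Red and blue points are the 2933 higher and 843 lower genes, and the dashed line is the median of 0.17. Kap lies alone at the right end.

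Among genes with a mean of 5 FPKM or more in the higher group and no overlap between groups, Ugt1a2 and Ugt1a10 rose most on the log2 scale. Ugt1a10, a UDP-glucuronosyltransferase, was at 149, 72.9, 87.4, and 208 FPKM in the diabetic and 1.48, 0.923, and 1.35 FPKM in the control mice. Its mean was 103-fold higher in diabetes (log2 fold change 6.48, SE 0.34, adjusted p 2.88e-05). Ugt1a2 was at 70.2, 12.0, 16.8, and 74.4 FPKM in the diabetic and 0.203, 0.205, and 0.323 FPKM in the control mice (log2 fold change 6.57, SE 0.62, adjusted p 0.000286). Both are annotated to the same stretch of chromosome 1 (chr1:88055411-88220002 and chr1:88200611-88220002, GRCm38.p6) and end at the same base, so reads from their shared exons may be split between them. Ubd, a ubiquitin-like protein induced by cytokines, was at 12.9, 19.9, 9.88, and 9.37 FPKM in the diabetic and 1.36, 0.583, and 1.09 FPKM in the control mice (log2 fold change 3.56, SE 0.32, adjusted p 0.00026). Gc, the vitamin D binding protein, was at 153, 98.7, 88.4, and 157 FPKM in the diabetic and 5.37, 4.00, and 4.27 FPKM in the control mice, 27.3-fold higher by the means (log2 fold change 4.71, SE 0.22, adjusted p 1.71e-05). Retnla, a secreted product of alternatively activated macrophages, was at 3.62, 8.80, 4.00, and 4.39 FPKM in Cfb-/- diabetic mice, and was listed at 0 in 2 of the 3 controls and at 0.241 FPKM in the first (log2 fold change 5.04, SE 0.48, adjusted p 0.000286).

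By amount, the largest gains were in Spp1 and B2m. Spp1 encodes osteopontin, a secreted phosphoprotein of injured tubules, and was at 2091, 1450.2, 1132, and 1586 FPKM in the diabetic and 262, 264, and 296 FPKM in the control mice (log2 fold change 2.48, SE 0.19, adjusted p 0.000147). B2m, the light chain of MHC class I, was at 909, 1257, 887, and 835 FPKM in the diabetic and 324, 308, and 352 FPKM in the control mice (log2 fold change 1.55, SE 0.15, adjusted p 0.000296). Matrix Gla protein (Mgp) rose 3.65-fold, from 168 ± 48.1 FPKM (SD, n = 3) to 612 ± 200.1 FPKM (SD, n = 4), with an adjusted p of 0.00188. Other abundant transcripts that rose were S100a11 at 1.14 (adjusted p 0.00167), Tmsb4x, which encodes an actin-binding peptide, at 1.15 (adjusted p 0.00473), Itm2b at 0.54 (adjusted p 0.00554), Ctsd, a lysosomal protease, at 0.93 (adjusted p 0.00178), and Psap, the precursor of the saposins, at 0.51 (adjusted p 0.0146). Psap was no longer called after median-ratio scaling or without the first control mouse.

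**Figure D2:**
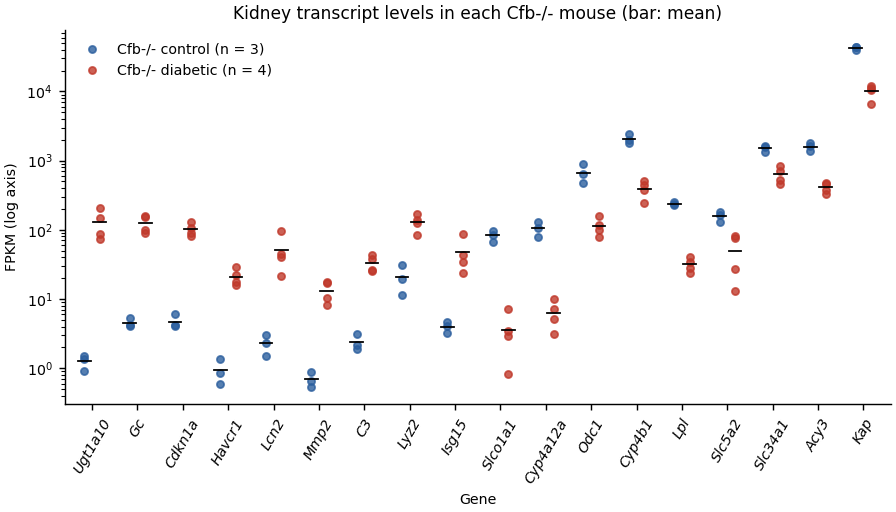
FPKM of 18 transcripts on a log axis, with a point for each of the 3 Cfb-/- control mice (blue) and 4 Cfb-/- diabetic mice (red), and a bar at the mean of each group. The genes were picked among called ones, of which 3665 of 3776 did not overlap between groups. That no diabetic point overlaps the controls here thus follows largely from the choice. The diabetic mice spread most in Slco1a1 and Slc5a2.

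Genes of tubule injury and repair were mostly higher. Of the list, 24 of 25 tested members rose, 0 fell, and 1 did not pass the test, against 25.2% of all tested genes that were higher, and the median log2 fold change was 2.04. Among them, 4 passed the filter only through the diabetic mice. Havcr1, which encodes kidney injury molecule 1 of the proximal tubule, was at 22.1, 28.9, 15.7, and 17.4 FPKM in the diabetic and 0.596, 1.37, and 0.847 FPKM in the control mice. Every diabetic mouse was above every control (log2 fold change 4.37, SE 0.28, adjusted p 7.9e-05). Lcn2, an iron-carrier-binding protein shed by injured tubules, was at 94.5, 40.9, 21.3, and 44.7 FPKM in the diabetic and 2.35, 1.51, and 2.98 FPKM in the control mice, with the highest value in the first diabetic mouse (log2 fold change 4.26, SE 0.43, adjusted p 0.000372). The cell cycle inhibitor Cdkn1a was at 105, 131, 90.8, and 80.1 FPKM in the diabetic and 4.00, 5.98, and 4.17 FPKM in the control mice, 21.6-fold higher by the means (log2 fold change 4.40, SE 0.19, adjusted p 1.34e-05). Clu, a secreted chaperone, was at 606, 462, 257, and 258 FPKM in the diabetic and 90.2, 183, and 113 FPKM in the control mice (log2 fold change 1.58, SE 0.34, adjusted p 0.00837). Itgb6, an integrin subunit, was the member that did not pass, at -0.20 (adjusted p 0.145), though it was called lower after median-ratio scaling.

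The p53 target genes moved with Cdkn1a. Of these, 18 of 20 tested members rose, 0 fell, and 2 did not pass the test, against 25.2% of all tested genes that were higher, and the median log2 fold change was 1.37. Of the 20, 4 passed the filter only through the diabetic mice. Eda2r, a receptor of the TNF receptor family, was at 3.78, 3.50, 3.66, and 3.09 FPKM in the diabetic and 0.0767, 0.108, and 0.120 FPKM in the control mice and showed little spread among the diabetic mice (log2 fold change 4.16, SE 0.18, adjusted p 1.34e-05). Psrc1, which encodes a spindle-associated protein, was at 5.47, 6.59, 3.92, and 2.38 FPKM in the diabetic and 0.123, 0.0836, and 0.114 FPKM in the control mice (log2 fold change 4.41, SE 0.32, adjusted p 0.000135). With a pseudocount of 1 the log2 fold change of Eda2r was 2.03 and that of Psrc1 was 2.27, because the control values lie near 0.1 FPKM. Fas at 0.19 (adjusted p 0.345) and Gadd45a at 0.72 (adjusted p 0.118) were the members that did not pass, though Gadd45a did without the first control mouse. Trp53 itself, the gene of p53, was higher at 0.73 (adjusted p 0.00557). Of cell cycle and mitosis genes, 13 of 16 tested members rose, 0 fell, and 3 did not pass the test, while 5 of the 16 passed the filter only through the diabetic mice and the other 16 listed members were under it. After quantile normalization 9 were called higher. Ube2c, Top2a, and Ccnb2, all of mitosis, rose by 2.39, 2.29, and 2.29 on the log2 scale, from control levels under 1 FPKM.

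Complement genes other than Cfb were mostly higher in diabetes. Of 30 listed with Cfb itself, 22 were tested, 3 of them only through the diabetic mice. Of these 17 (77.3%) rose and 3 (13.6%), Cfb among them, fell, with a median log2 fold change of 1.51. Of all tested genes 25.2% were higher and 7.24% lower. C3, the substrate of the factor B convertase, was at 38.3, 25.5, 26.5, and 43.6 FPKM in the diabetic and 2.15, 1.91, and 3.10 FPKM in the control mice. All 4 diabetic mice exceeded the controls (log2 fold change 3.75, SE 0.23, adjusted p 5.92e-05). The genes of C1q, the recognition molecule of the classical pathway, rose together, C1qa by 2.38, C1qb by 2.19, and C1qc by 2.39 (highest adjusted p 0.000605). The classical pathway members C4b at 2.23 (adjusted p 0.000219), C1ra at 1.58 (adjusted p 0.000587), and C1s1 at 1.50 (adjusted p 0.00131) were higher as well, and C2, the counterpart of factor B in the classical pathway, was at 0.39 (adjusted p 0.0348), a call lost after median-ratio scaling or quantile normalization. Masp1, a protease of the lectin pathway, was at 1.59, 2.05, 1.61, and 1.09 FPKM in the diabetic and 0.0946, 0.113, and 0.184 FPKM in the control mice (log2 fold change 2.86, SE 0.27, adjusted p 0.000286).

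Regulators and receptors of complement followed. Cfp, which encodes properdin, the stabilizer of the alternative convertase, rose by 1.52 (adjusted p 0.00436), Cfi, which inactivates C3b, by 1.49 (adjusted p 0.00132), and Serping1, the C1 inhibitor, by 1.70 (adjusted p 0.00166). The membrane regulators Cd55 at 0.16 (adjusted p 0.472) and Cr1l at 0.15 (adjusted p 0.299) did not pass the test. The anaphylatoxin receptors C3ar1 at 2.89 (adjusted p 0.000286) and C5ar1 at 1.98 (adjusted p 0.00242) were higher. The members that fell were Cfb and 2 chains of C8 in the terminal pathway, C8g at -1.11 (adjusted p 0.00311) and C8a at -1.05 (adjusted p 0.0207). The call of C8a was lost without the third control mouse.

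Interferon-response genes had the highest median of all lists, 2.45 on the log2 scale. Of the list, 25 of 25 tested members were called higher, against 25.2% of all tested genes, and 4 of them passed the filter only through the diabetic mice. Isg15, a ubiquitin-like modifier, was at 34.5, 87.5, 43.7, and 23.4 FPKM in the diabetic and 4.01, 3.21, and 4.61 FPKM in the control mice (log2 fold change 3.39, SE 0.38, adjusted p 0.000506). Irf7, a transcription factor that amplifies type I interferon, was at 29.9, 71.4, 45.1, and 24.2 FPKM in the diabetic and 3.84, 3.02, and 4.38 FPKM in the control mice (log2 fold change 3.37, SE 0.33, adjusted p 0.000328), and Oas2, a sensor of double-stranded RNA, was at 4.30, 10.5, 5.04, and 2.38 FPKM in the diabetic and 0.283, 0.473, and 0.410 FPKM in the control mice (log2 fold change 3.36, SE 0.42, adjusted p 0.000738). The second diabetic mouse was the highest in all 3 genes and the fourth the lowest. The list mean of log2(FPKM + 0.1) was 3.50, 4.49, 3.82, and 3.18 in the 4 diabetic mice and 1.59, 1.22, and 1.75 in the controls.

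Because these genes moved together, their promoters were searched for the core of the interferon-stimulated response element, GAAA followed by any 2 bases and a further GAAA, on both strands, where it reads TTTC, any 2 bases, and TTTC on the opposite strand. RefSeq promoters of GRCm38.p6, from 250 bases before to 50 bases after the start site, were at hand for 19 of the 25 genes, and 12 of these (63.2%) held the motif. It occurred in 3.99% of all 27025 genes with a promoter and in 3.67% of the 9011 tested ones. The list was made of known interferon-response genes, so this share describes the list and is not a result about these mice. A match describes the sequence and is not a measured binding site. The 4 motif-holding promoters whose genes rose most are shown 5′ to 3′ as examples. They were chosen after the values were seen. Capitals mark the motif, and overlapping copies run together.
Isg15 chr4:156200769-156201068 (minus strand): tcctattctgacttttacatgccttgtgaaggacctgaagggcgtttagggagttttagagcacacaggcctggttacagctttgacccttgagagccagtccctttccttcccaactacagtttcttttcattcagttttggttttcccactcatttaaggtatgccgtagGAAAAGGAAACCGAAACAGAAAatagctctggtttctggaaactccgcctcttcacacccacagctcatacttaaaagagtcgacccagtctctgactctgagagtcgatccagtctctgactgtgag
Ifit1 chr19:34640639-34640938 (plus strand): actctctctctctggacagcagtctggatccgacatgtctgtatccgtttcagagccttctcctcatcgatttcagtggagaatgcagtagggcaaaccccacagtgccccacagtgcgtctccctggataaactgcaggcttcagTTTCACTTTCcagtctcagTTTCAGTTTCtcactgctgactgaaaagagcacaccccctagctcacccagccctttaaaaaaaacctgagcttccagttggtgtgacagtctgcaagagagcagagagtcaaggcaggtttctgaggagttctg
Oas1a chr5:120907476-120907775 (minus strand): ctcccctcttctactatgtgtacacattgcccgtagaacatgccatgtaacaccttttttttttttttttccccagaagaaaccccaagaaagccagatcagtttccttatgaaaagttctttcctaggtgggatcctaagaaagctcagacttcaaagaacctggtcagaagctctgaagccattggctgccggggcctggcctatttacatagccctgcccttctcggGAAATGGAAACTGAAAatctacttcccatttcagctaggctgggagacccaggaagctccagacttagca
Bst2 chr8:71537423-71537722 (minus strand): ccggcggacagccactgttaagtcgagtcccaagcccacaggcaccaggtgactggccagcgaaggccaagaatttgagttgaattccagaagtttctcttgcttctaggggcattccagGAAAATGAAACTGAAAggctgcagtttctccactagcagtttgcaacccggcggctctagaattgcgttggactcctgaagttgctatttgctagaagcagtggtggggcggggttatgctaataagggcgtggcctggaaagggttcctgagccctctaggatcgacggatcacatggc

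The genes of these 4 promoters all rose. Ifit1, which binds foreign RNA, was at 11.2, 28.2, 17.8, and 8.41 FPKM in the diabetic and 1.41, 1.10, and 1.95 FPKM in the control mice (log2 fold change 3.26, SE 0.38, adjusted p 0.000563). Oas1a was at 5.60, 13.0, 7.73, and 4.85 FPKM in the diabetic and 0.759, 0.544, and 0.893 FPKM in the control mice (log2 fold change 3.16, SE 0.32, adjusted p 0.000365), and Bst2, a membrane tether of viruses, was at 75.3, 162, 105, and 63.0 FPKM in the diabetic and 12.8, 13.7, and 16.1 FPKM in the control mice (log2 fold change 2.73, SE 0.28, adjusted p 0.00039). In each, the second diabetic mouse stood highest, as for Isg15.

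Leukocyte genes and chemokines were higher in Cfb-/- diabetic mice. Of the macrophage and dendritic cell markers, 19 of 20 tested members rose, 0 fell, and 1 did not pass the test. Across all tested genes, 25.2% were higher. The markers had a median log2 fold change of 2.22, and 7 of the 20 passed the filter only through the diabetic mice. Lyz2, which encodes lysozyme, was at 169, 140.0, 84.8, and 127 FPKM in the diabetic and 19.3, 11.3, and 30.9 FPKM in the control mice (log2 fold change 2.73, SE 0.33, adjusted p 0.000636). Mrc1, a mannose receptor, rose by 2.72 and Fcgr1, an IgG receptor, by 2.71 on the log2 scale. Summed FPKM of the markers was 270.2 to 462 in the diabetic mice against 66.3 to 109 in the controls. In bulk tissue, more or fewer cells of a type and more or less RNA per cell cannot be told apart.

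Lymphocyte markers stood at low levels. Of 20 T and NK cell markers, 10 were tested, 7 of them only through the diabetic mice. All 10 were called higher, against 25.2% of all tested genes, with 8 called after median-ratio scaling and 2 after quantile normalization. Ccl5, a chemokine of cytotoxic lymphocytes, was at 12.8, 22.2, 7.15, and 10.1 FPKM in the diabetic and 3.67, 2.68, and 3.21 FPKM in the control mice (log2 fold change 1.89, SE 0.33, adjusted p 0.0029), Thy1 rose by 2.09 on the log2 scale, and the helper cell marker Cd4 by 1.96, the last not called after quantile normalization. Of 16 B cell and plasma cell markers, 3 were tested, 2 of them only through the diabetic mice, and called, namely Jchain at 1.87 (adjusted p 0.0455), Mzb1 at 1.23 (adjusted p 0.0333), and Cd79b at 0.91 (adjusted p 0.0379), and all 3 calls were lost after median-ratio scaling. Of 10 neutrophil markers, 2 were tested and neither was called, S100a8 at -0.64 (adjusted p 0.307) and S100a9 at -1.83 (adjusted p 0.0547), although S100a9 was called lower after median-ratio scaling and without the first diabetic mouse.

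Chemokine genes were mostly higher. Of the list, 21 of 25 tested members rose, 0 fell, and 4 did not pass the test (median 1.89). Of all tested genes 25.2% were higher, and 10 of the list passed only through the diabetic mice. Ccl8 was at 30.4, 17.9, 7.34, and 17.6 FPKM in the diabetic and 0.973, 0.365, and 2.58 FPKM in the control mice (log2 fold change 3.90, SE 0.60, adjusted p 0.00178), and Ccl2, the main ligand of the monocyte receptor Ccr2, at 17.5, 16.8, 6.44, and 9.89 FPKM in the diabetic and 0.927, 1.78, and 0.595 FPKM in the control mice (log2 fold change 3.42, SE 0.41, adjusted p 0.000638). Ccl7, another ligand of that receptor, rose by 3.92 and the neutrophil attractant Cxcl1 by 3.64 on the log2 scale, from controls under 1 FPKM. The third diabetic mouse was the lowest of the 4 for each of these genes.

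Of the antigen presentation genes, 19 of 19 rose, against 25.2% of all tested genes, and 4 of them passed the filter only through the diabetic mice. Their median log2 fold change was 1.52. Cd74, the invariant chain of MHC class II, was at 549, 586, 348, and 397 FPKM in the diabetic and 106, 99.6, and 132 FPKM in the control mice (log2 fold change 2.04, SE 0.20, adjusted p 0.000293). H2-Ab1, a class II beta chain, was at 309, 348, 196, and 234 FPKM in the diabetic and 78.7, 63.3, and 82.6 FPKM in the control mice (log2 fold change 1.83, SE 0.20, adjusted p 0.000452), and the class I regulator Nlrc5 rose by 1.91 (adjusted p 0.00229). Genes of the H2 family are close paralogs, and their reads may be split between members. Of the NF-kB pathway and its targets, 17 of 21 tested members (81.0%) rose, 0 fell, and 4 did not pass the test, against the same 25.2%. The median was 1.34, and 4 passed the filter only through the diabetic mice. Among those that rose were the feedback inhibitor Tnfaip3 at 1.29 (adjusted p 0.00139) and the subunit gene Relb at 1.99 (adjusted p 0.000918). The subunit gene Rela was at 0.60 (adjusted p 0.0164), not called without the second control mouse.

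Each tested gene of matrix and fibrosis rose, 39 of 39 (median log2 fold change 1.65), against 25.2% of all tested genes. Of the 39, 10 passed the filter only through the diabetic mice. Mmp2, a gelatinase, was at 16.9, 17.4, 8.17, and 10.4 FPKM in the diabetic and 0.535, 0.650, and 0.881 FPKM in the control mice (log2 fold change 4.03, SE 0.28, adjusted p 0.00013). Timp1, an inhibitor of such proteases, was at 9.24, 8.45, 3.92, and 6.61 FPKM in the diabetic and 0.446, 0.711, and 0.559 FPKM in the control mice (log2 fold change 3.36, SE 0.29, adjusted p 0.000241), and Fn1, which encodes fibronectin, at 15.6, 15.3, 10.9, and 12.4 FPKM in the diabetic and 1.74, 1.59, and 2.46 FPKM in the control mice (log2 fold change 2.76, SE 0.18, adjusted p 9.83e-05). Groups were apart in each. Fibrillar collagen genes rose as well, Col1a1 by 2.49, Col3a1 by 2.37, and Col1a2 by 1.94 on the log2 scale, and the basement membrane collagen genes Col4a1 and Col4a2 by 1.41 and 1.40. The smallest rise in the list was that of Acta2, the smooth muscle actin of myofibroblasts, at 0.66 (adjusted p 0.00537). Of 18 acute phase genes 8 were tested, 2 of them only through the diabetic mice, and 6 rose, with Serpina3n at 2.88 (adjusted p 0.00151), the fibrinogen chain Fgg at 2.37 (adjusted p 0.00198), and ceruloplasmin (Cp) at 2.29 (adjusted p 0.000408).

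**Figure D3:**
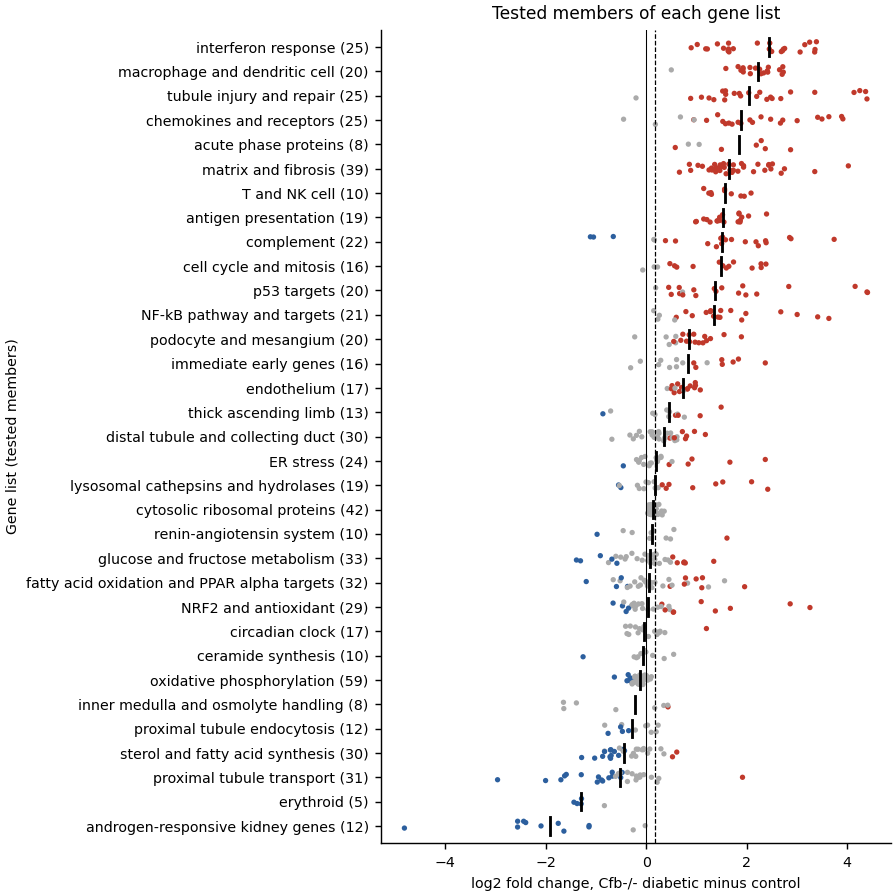
Each point is a tested member of a gene list, with its log2 fold change, Cfb-/- diabetic minus control, on the x axis and the lists on the y axis, ordered by their median (black bar), with the number of tested members in parentheses. Red and blue mark genes past the test, grey those not past it, and the dashed line is the median of all tested genes at 0.17. Interferon response lies highest at 2.45 and androgen-responsive kidney genes lowest at -1.92.

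The genes that fell most included those known as androgen-responsive in the mouse kidney. Of 12 tested, 10 fell, each over 2-fold, against 7.24% of all tested genes that were lower, and the median log2 fold change was -1.92. Kap, kidney androgen-regulated protein, a transcript of the proximal tubule, was at 6671, 11341, 12118, and 10349 FPKM in the diabetic and 39707, 43757, and 43149 FPKM in the control mice. It was 4.17-fold lower by the means (log2 fold change -2.10, SE 0.22, adjusted p 0.000415). Quantile normalization removed that call (log2 fold change -0.25), since it sets the top-ranked gene of every mouse to the same value and Kap ranked first in 6 of the 7. Slco1a1, an organic anion transporter, was at 0.827, 2.89, 7.13, and 3.46 FPKM in the diabetic and 97.5, 66.3, and 84.8 FPKM in the control mice, 23.2-fold lower by the means (log2 fold change -4.82, SE 0.56, adjusted p 0.000575). Odc1, which makes putrescine, was at 78.1, 118, 157, and 98.1 FPKM in the diabetic and 634, 881, and 481 FPKM in the control mice (log2 fold change -2.56, SE 0.26, adjusted p 0.000368).

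In the same group, the cytochrome P450 gene Cyp4b1 was at 246, 377, 499.9, and 440.3 FPKM in the diabetic and 2406, 1969.7, and 1824 FPKM in the control mice (log2 fold change -2.44, SE 0.23, adjusted p 0.000286). Cyp2e1 was at 99.4, 137, 224, and 175 FPKM in the diabetic and 833, 900.3, and 689 FPKM in the control mice (log2 fold change -2.40, SE 0.25, adjusted p 0.00038). Gusb, which encodes a lysosomal glucuronidase, was at -0.26 (adjusted p 0.0783) and did not pass, though it was called lower after median-ratio scaling. The first diabetic mouse had the lowest value of the 4 in Kap, Slco1a1, Odc1, Cyp4b1, and Cyp2e1. Circulating androgen was not analysed here.

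Other strong falls were in P450 enzymes and lipid handling. Cyp4a12a, a fatty acid hydroxylase of male kidney, was at 3.17, 5.07, 9.99, and 7.19 FPKM in the diabetic and 107, 128, and 79.7 FPKM in the control mice (log2 fold change -4.12, SE 0.34, adjusted p 0.000224), and Cyp2d12 was at 7.28, 12.2, 16.7, and 4.70 FPKM in the diabetic and 78.2, 112, and 87.0 FPKM in the control mice (log2 fold change -3.31, SE 0.38, adjusted p 0.000554). Both belong to families of close paralogs, so reads may be shared among members. Lpl, lipoprotein lipase, was at 28.0, 34.7, 40.3, and 23.9 FPKM in the diabetic and 249, 235, and 229 FPKM in the control mice, 7.49-fold lower by the means with little spread in either group (log2 fold change -2.93, SE 0.17, adjusted p 4.42e-05). Ces1g, a carboxylesterase, was at 0.810, 1.49, 1.23, and 0.839 FPKM in the diabetic and 23.8, 2.95, and 3.75 FPKM in the control mice (log2 fold change -2.50, SE 0.63, adjusted p 0.0159), where the first control mouse stood far above the rest. Pzp, a protease inhibitor of plasma, fell by 2.57 and the transporter gene Slc16a14 by 2.58 on the log2 scale.

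Proximal tubule transporter genes were lower in part. Of the list, 1 of 31 tested members rose, 15 (48.4%) fell, and 15 did not pass the test, against 7.24% of all tested genes that were lower. The median log2 fold change was -0.52. Slc34a1, the main phosphate cotransporter of the brush border, was at 466, 525, 829, and 713 FPKM in the diabetic and 1620.2, 1580.1, and 1346 FPKM in the control mice (log2 fold change -1.29, SE 0.20, adjusted p 0.0018). Slc34a3, a second phosphate cotransporter, was at 0.526, 2.29, 3.03, and 0.996 FPKM in the diabetic and 12.4, 12.4, and 10.2 FPKM in the control mice (log2 fold change -2.96, SE 0.49, adjusted p 0.00238). Slc5a2, the glucose cotransporter SGLT2, was at 13.1, 75.3, 82.4, and 27.5 FPKM in the diabetic and 161, 180.1, and 130.0 FPKM in the control mice, and the diabetic mice spread over a wide range below the controls, 3.17-fold lower by the means (SE of the log2 fold change 0.57, adjusted p 0.0264). That call was lost without the fourth diabetic mouse or any control mouse. The glucose transporters Slc5a1, which is SGLT1, at 0.25 (adjusted p 0.284) and Slc2a2, which is GLUT2, at -0.20 (adjusted p 0.528) did not pass the test.

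Organic anion transporters fell with them, Slc22a8, which is OAT3, by 1.70 on the log2 scale (adjusted p 0.00809), and Slc17a3 and Slc22a6 by 1.62 and 0.95 on the log2 scale. Abcc4, an efflux pump for organic anions, went the other way, at 18.5, 17.1, 24.5, and 21.2 FPKM in the diabetic and 6.57, 3.77, and 5.83 FPKM in the control mice (log2 fold change 1.92, SE 0.20, adjusted p 0.000387). It was the sole member that rose. Aqp1, the water channel of proximal tubule, was at -0.05 (adjusted p 0.897) and did not pass. Of the 12 genes of protein endocytosis, 4 (33.3%) fell, against 7.24% of all tested genes that were lower. The calls of Folr1 at -0.76 (adjusted p 0.0226), Amn at -0.51 (adjusted p 0.0279), and Dab2 at -0.47 (adjusted p 0.0374) were lost when single mice were left out.

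Enzymes of the proximal tubule were among the largest losses by amount after Kap and Cyp4b1. Acy3, an aminoacylase, was at 331, 377, 468, and 459.8 FPKM in the diabetic and 1610.2, 1791, and 1369.9 FPKM in the control mice (log2 fold change -1.97, SE 0.15, adjusted p 0.000173). Miox, which starts the breakdown of inositol, was at 407, 397, 575, and 694 FPKM in the diabetic and 1551, 2043, and 1401 FPKM in the control mice (log2 fold change -1.71, SE 0.22, adjusted p 0.000861). Ass1, an enzyme of arginine synthesis, was at 451, 387, 652, and 669 FPKM in the diabetic and 1144, 1062, and 1034 FPKM in the control mice (log2 fold change -1.04, SE 0.20, adjusted p 0.00459). None of these groups overlapped. Keg1 at -1.21 (adjusted p 0.00606), the selenium carrier gene Sepp1 at -0.91 (adjusted p 0.0034), the fatty acid transport gene Slc27a2 at -0.86 (adjusted p 0.00467), and Fxyd2, a subunit of the sodium pump, at -0.47 (adjusted p 0.0143) were lower as well, and the last 2 were not called after quantile normalization.

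Genes of central metabolism included some that rose and some that fell. Of glucose and fructose metabolism, 6 of 33 tested members rose, 5 fell, and 22 did not pass the test (median 0.08), against 25.2% higher and 7.24% lower of all tested genes, and 9 were called lower after median-ratio scaling. G6pc, the glucose-releasing enzyme of gluconeogenesis, was at 70.6, 68.1, 89.6, and 100.2 FPKM in the diabetic and 187, 196, and 221 FPKM in the control mice (log2 fold change -1.31, SE 0.15, adjusted p 0.000554), and Ldhd, the D-lactate dehydrogenase, at 147, 146, 226, and 211 FPKM in the diabetic and 499, 393, and 525 FPKM in the control mice (log2 fold change -1.39, SE 0.19, adjusted p 0.00101). Pfkp, the platelet-type phosphofructokinase of glycolysis, was at 20.5, 19.6, 18.5, and 19.3 FPKM in the diabetic and 7.20, 5.43, and 11.1 FPKM in the control mice (log2 fold change 1.35, SE 0.20, adjusted p 0.00171), and Pkm, a pyruvate kinase, rose by 0.78 (adjusted p 0.00686). Pck1, the enzyme that commits to gluconeogenesis, overlapped between groups at -0.75 (adjusted p 0.148).

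Of fatty acid oxidation genes and PPAR alpha targets, 7 of 32 tested members rose, 4 fell, and 21 did not pass the test, against 25.2% higher and 7.24% lower of all tested genes. After median-ratio scaling 8 were called lower, and the median of 0.07 turned to -0.12 under median-ratio scaling. Angptl4, an inhibitor of lipoprotein lipase, was at 21.6, 30.7, 32.0, and 29.9 FPKM in the diabetic and 10.9, 4.70, and 7.19 FPKM in the control mice (log2 fold change 1.96, SE 0.26, adjusted p 0.000916), Acot3 rose by 1.11, and Pdk4, which restrains glucose oxidation, by 1.12 on the log2 scale, a call that was lost without the second control mouse. The fatty acid receptor Cd36 was at 39.9, 44.0, 72.9, and 69.3 FPKM in the diabetic and 117, 114, and 146 FPKM in the control mice (log2 fold change -1.19, SE 0.22, adjusted p 0.00425). Acads was lower at -0.50 (adjusted p 0.00357), while Cpt1a, the entry step of mitochondrial oxidation, was at -0.01 (adjusted p 0.977).

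Of 59 oxidative phosphorylation genes, 6 (10.2%) fell and none rose, against 7.24% of all tested genes that were lower. The median of -0.13 became -0.31 after median-ratio scaling, with 21 called lower, and 0.004 after quantile normalization. Cycs, cytochrome c, fell by 0.63 (adjusted p 0.00485). Of sterol and fatty acid synthesis genes, 2 of 30 tested members rose, 13 (43.3%) fell, and 15 did not pass the test (median -0.44). Idi1, of the isoprenoid branch, fell by 1.29 (adjusted p 0.00394), Mvd fell by 0.87 and Me1, which supplies NADPH, by 1.03, while the elongase Elovl6 rose by 0.61 on the log2 scale, though not after quantile normalization. Of 14 ceramide synthesis genes 10 were tested, and the other 4 were under the filter, at 2.26 FPKM or less. Degs2 alone was called lower and none higher, so the share called lower (10.0%) was near the 7.24% of all tested genes. Under either other scaling 3 genes were called lower. Degs2 was at 6.14, 5.48, 5.25, and 5.30 FPKM in the diabetic and 17.2, 12.4, and 11.2 FPKM in the control mice (log2 fold change -1.26, SE 0.15, adjusted p 0.000638).

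Of NRF2 and antioxidant genes, 9 of 29 tested members (31.0%) rose, 4 (13.8%) fell, and 16 did not pass the test. Of all tested genes 25.2% were higher and 7.24% lower. After median-ratio scaling 6 of the list were called higher and 6 lower, and the median of 0.04 turned to -0.15. Ephx1, a microsomal epoxide hydrolase, was at 137, 116, 108, and 122 FPKM in the diabetic and 17.2, 13.0, and 19.6 FPKM in the control mice, 7.27-fold higher by the means (log2 fold change 2.87, SE 0.15, adjusted p 2.62e-05). Gsta1 rose by 3.26 and Gsta2 by 1.68, both glutathione transferases of close sequence, whereas the superoxide dismutases Sod1 and Sod3 fell by 0.66 and 0.47 on the log2 scale. The call of Sod3 was lost after quantile normalization and without the second control mouse. Hmox1, a classic NRF2 target, was at 0.47 (adjusted p 0.14) and did not pass. Of ER stress genes, 5 of 24 tested members rose, 1 fell, and 18 did not pass the test, a share below the 25.2% of all tested genes that were higher, and 2 were called higher after quantile normalization. Those that rose were Atf3 and Ppp1r15a, Trib3 and Asns, both not called after quantile normalization, and Eif2ak3, not called after that or median-ratio scaling. The chaperone gene Hspa5 was at 0.20 (adjusted p 0.56). Of immediate early genes, 7 of 16 tested members (43.8%) rose, 0 fell, and 9 did not pass the test, against 25.2% of all tested genes that were higher. Atf3 was at 2.37 (adjusted p 0.0107) and Klf6 at 1.84 (adjusted p 0.000415).

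Podocyte and endothelial genes stood higher in diabetes, by less than the injury genes. Of podocyte and mesangium genes, 15 of 20 tested members rose, 0 fell, and 5 did not pass the test (median 0.86). Of all tested genes 25.2% were higher, against 75.0% of this list and 82.4% of the endothelial list. Kirrel, of the slit diaphragm, was at 5.67, 5.37, 3.45, and 3.47 FPKM in the diabetic and 1.03, 1.07, and 1.22 FPKM in the control mice (log2 fold change 1.90, SE 0.21, adjusted p 0.000479), and Nphs1, which encodes nephrin, at 7.44, 7.89, 5.36, and 4.92 FPKM in the diabetic and 2.72, 3.71, and 3.08 FPKM in the control mice (log2 fold change 0.97, SE 0.19, adjusted p 0.00548). Nes, an intermediate filament gene of podocytes, rose by 1.55 (adjusted p 0.00173). Of endothelial genes, 14 of 17 tested members rose, 0 fell, and 3 did not pass the test (median 0.73), and 9 were called higher after quantile normalization, with Eng, a TGF-beta co-receptor, at 1.08 (adjusted p 0.00121) and Pecam1 at 0.98 (adjusted p 0.00191). The first and second diabetic mice were above the third and the fourth in the podocyte list mean, at 3.67, 3.62, 3.04, and 3.01, against 2.38, 2.58, and 2.38 in the controls.

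Genes of the distal nephron were called higher at a share near the 25.2% of all tested genes. Of distal tubule and collecting duct genes, 7 of 30 tested members rose, 0 fell, and 23 did not pass the test, and the count fell to 2 higher and 1 lower after median-ratio scaling and to 3 and 1 after quantile normalization, with the calcium channel gene Trpv5, not called after quantile normalization, at 1.18 (adjusted p 0.0137) and the sodium channel subunit Scnn1a at 0.96 (adjusted p 0.00932). In the thick ascending limb, 4 of 13 tested members rose, 1 fell, and 8 did not pass the test, with 2 called higher after median-ratio scaling. Cldn16, of the paracellular magnesium pathway, was at 22.2, 19.3, 15.6, and 19.2 FPKM in the diabetic and 7.24, 5.56, and 7.31 FPKM in the control mice (log2 fold change 1.49, SE 0.15, adjusted p 0.000331). Cldn10, another claudin of the list, was at 64.5, 64.0, 98.3, and 99.9 FPKM in the diabetic and 148, 144, and 143 FPKM in the control mice (log2 fold change -0.86, SE 0.18, adjusted p 0.00665). In bulk kidney the segment that a transcript came from cannot be told. Umod was at 787, 1010.2, 1026, and 991 FPKM in the diabetic and 816, 483, and 1499.8 FPKM in the control mice and did not pass (adjusted p 0.701). The thick limb list mean was 4.41, 3.94, and 4.90 in the 3 control mice and 4.93, 4.83, 4.81, and 4.83 in the diabetic mice, so that the second control mouse was the lowest of the 7. Of inner medulla genes Nfat5 was called among 8 tested at 0.43 (adjusted p 0.0345), and that call was lost after median-ratio scaling and without any of 5 single mice.

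Agt, the precursor of angiotensin, was at 83.4, 59.5, 66.5, and 90.2 FPKM in the diabetic and 20.5, 22.2, and 30.9 FPKM in the control mice (log2 fold change 1.61, SE 0.18, adjusted p 0.000554). Ren1 at 0.40 (adjusted p 0.511) did not pass, and the call of Ace at -0.98 (adjusted p 0.0311) was lost when single mice were left out. Of lysosomal genes, 8 of 19 tested members (42.1%) rose, 2 (10.5%) fell, and 9 did not pass the test. Of all tested genes 25.2% were higher and 7.24% lower. After median-ratio scaling 6 lysosomal genes were called higher and 4 lower. Ctss, the cathepsin of antigen-presenting cells, was at 54.0, 49.8, 30.6, and 33.4 FPKM in the diabetic and 6.92, 6.70, and 9.14 FPKM in the control mice (log2 fold change 2.42, SE 0.22, adjusted p 0.000268). Per1 was the sole circadian clock gene called among 17, at 1.20 (adjusted p 0.000958), while median-ratio scaling called 3 others lower and quantile normalization 4. Of 42 cytosolic ribosomal protein genes limma called 0, with 2 at an unadjusted p under 0.05, and their median of 0.14 turned to -0.05 under median-ratio scaling, while quantile normalization called 16 higher.

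Markers of other tissues were checked in the same mice. Red cell transcripts were lower in diabetes, 4 of 5 by the test, against 7.24% of all tested genes that were lower. Their summed FPKM was 126 to 306 in the diabetic mice against 304 to 555 in the controls, and the globin genes are close paralogs. Adipocyte markers summed to 36.7 to 48.0 and 39.7 to 76.9 FPKM, and the first control mouse stood apart with a list mean of 1.18 against -1.66 and -1.64 in the other controls. Of these, Car3 was lower at -2.41 (adjusted p 0.000371) and Fabp4 higher at 0.72 (adjusted p 0.0229), the latter not after median-ratio scaling. Urothelium markers summed to 15.3 to 24.5 and 2.33 to 31.2 FPKM, lowest in the second control mouse, and limma called 0 of 3 tested, with 1 at an unadjusted p under 0.05. Exocrine pancreas was represented by Cela1 alone (-0.65, adjusted p 0.0447), and of its other 6 markers all were listed at 0 in the controls. Adrenal markers summed to at most 0.625 FPKM and skeletal muscle markers to at most 1.79 FPKM. The part of red cells, fat, or urothelium in any gene's change was not tested.

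The 4 Cfb-/- diabetic mice were not alike in extent. The list mean of tubule injury and repair was 5.27, 4.99, 4.25, and 4.55 in diabetic mice 1 to 4 and 2.45, 2.44, and 2.66 in the controls. Proximal tubule transport ran from 5.12 in the first to 5.97 in the third diabetic mouse, with controls at 6.22, 6.04, and 6.15. The androgen-responsive list was at 5.22, 5.70, 6.26, and 6.05 in the diabetic mice and 7.75, 7.59, and 7.79 in the controls. Mice 1 and 2 thus had the higher injury values and the lower transport and androgen-responsive values, and mouse 3 was nearest to the controls in all 3 lists. Interferon response had another order, highest in mouse 2 and lowest in mouse 4.

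**Figure D4:**
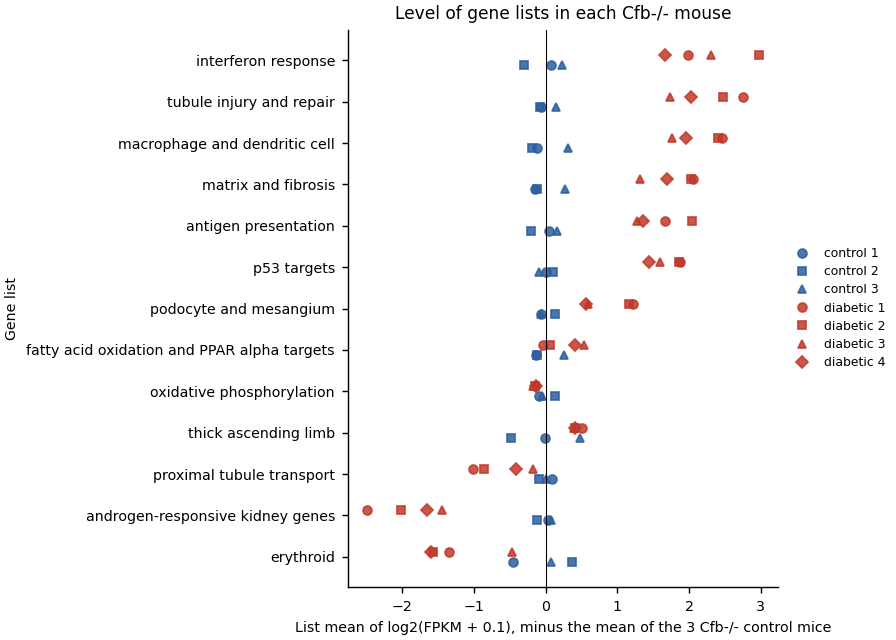
Mean log2(FPKM + 0.1) over the found members of each gene list in each Cfb-/- mouse, as the difference from the mean of the 3 Cfb-/- control mice (x axis), with control mice in blue, diabetic mice in red, and a marker shape for each replicate number. All 4 diabetic mice lie to the right of the controls for the interferon, injury, macrophage and dendritic cell, matrix, antigen presentation, p53, and podocyte lists. They lie to the left for the transport, androgen-responsive, oxidative phosphorylation, and erythroid lists. In the last 2 the margin is narrow, with nearest list means of 8.02 and 8.06, and of 4.87 and 4.88.

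The response was then set beside that of WT mice, which share no sample with it. On the same 11640 genes limma called 3333 genes higher and 1102 lower in WT diabetic mice. These genes passed the filter on the Cfb-/- mice alone, so genes expressed only in WT mice could not enter the overlap. As a background, 4435 of the 11640 genes were called in WT and 3776 in Cfb-/- mice. Of the calls in Cfb-/- mice 78.3% were called in WT mice, all in the same direction, and of the calls in WT mice 66.7% were called in Cfb-/- mice. The interaction of genotype with diabetes, the test of a difference between the responses, called 0 genes by limma at an adjusted p under 0.05, with 619 genes at an unadjusted p under 0.05. Without the first Cfb-/- control mouse 3 genes were called, and without the second Cfb-/- diabetic mouse 1 gene. A count of 0 does not show that the responses were the same.

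The 5 genes with the smallest unadjusted interaction p, all at an adjusted p of 0.737, included Cyp4a14, a PPAR alpha target. It was at 94.8, 72.3, 194, and 137 FPKM in the diabetic and 13.4, 96.3, and 47.0 FPKM in the control mice, and at 154, 211, 228, and 250.1 FPKM in WT diabetic and 10.5, 4.97, and 1.76 FPKM in WT control mice. Its log2 fold change was 1.56 in Cfb-/- and 5.48 in WT mice, and the Cfb-/- control mice spread widely. In Cfb-/- mice alone it did not pass the test (adjusted p 0.0751), but it did without the second control mouse. Amdhd2 and Uap1l1, both of amino sugar metabolism, had log2 fold changes of -0.15 and 0.64 in Cfb-/- mice against -1.04 and -0.09 in WT mice. For Tusc1 the values were 0.39 and -0.35, and for Klhdc9 0.43 and -0.80. Havcr1 rose by 4.37 in Cfb-/- and by 5.53 in WT mice, and Lcn2 by 4.26 and 5.92, without passing the interaction test. Mean Havcr1 was 21.0 FPKM in both diabetic groups, against 0.940 FPKM in Cfb-/- and 0.400 FPKM in WT controls. Mean Lcn2 was 50.4 FPKM in Cfb-/- and 62.3 FPKM in WT diabetic mice, against 2.28 and 0.880 FPKM in their controls. Apoe went the other way, rising by 2.29 in Cfb-/- and by 1.27 in WT mice, and did not pass either.

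By gene list, the medians of both genotypes lay close for most groups. Interferon response was at 2.45 in Cfb-/- and 2.17 in WT mice, tubule injury and repair at 2.04 and 2.18, matrix and fibrosis at 1.65 and 1.48, and androgen-responsive genes at -1.92 and -1.62. Inner medulla genes differed most among lists of at least 5 tested genes, at -0.22 in Cfb-/- and 1.37 in WT mice. Their list mean ranged from 2.34 to 4.50 in WT diabetic and from 2.67 to 3.69 in Cfb-/- diabetic mice. In the controls it was at most 2.37 in WT mice and ranged from 2.98 to 4.27 in Cfb-/- mice. Urothelium markers summed to 15.0 to 135 FPKM in WT diabetic mice, against at most 2.05 FPKM in WT control mice. In Cfb-/- mice they summed to 15.3 to 24.5 FPKM in diabetes and 2.33 to 31.2 FPKM in controls. The part of the sampled kidney region in the difference of the inner medulla list was not tested.

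**Figure D5:**
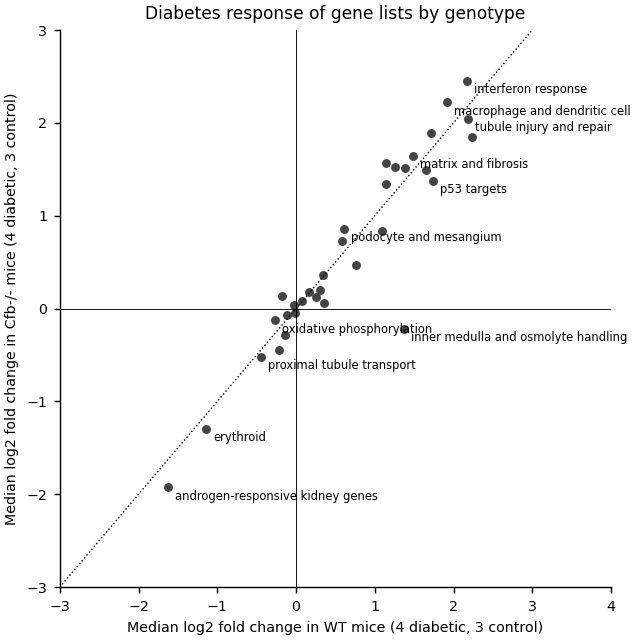
Each point is a gene list with at least 5 tested members, with its median log2 fold change, diabetic minus control, in WT mice on the x axis and in Cfb-/- mice on the y axis. The dotted line marks equal values. Most lists lie near it, and the inner medulla list lies to the right of it, at -0.22 in Cfb-/- and 1.37 in WT mice.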

How the data were processed

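RNA was sequenced from the kidneys of 14 mice, 7 of them Cfb-/-. The authors deposited an FPKM value per gene and sample. The submitters' processing notes name Trimmomatic, HISAT2, Cufflinks, HTSeq, and DESeq, and the build GRCm38.p6, without versions. Which of them made the FPKM values is not given in the sources used here. No read counts were used here, so the count-based test named by the study was replaced by limma (version 3.58.1, R 4.3.3), its variance prior following the mean level, on log2(FPKM + 0.1), over genes with an FPKM of 1 or more in 3 or more of the 7 Cfb-/- samples, with Benjamini-Hochberg adjustment over all 11640. No 2 libraries held identical values.

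The members and the 40 gene lists were chosen with earlier results of these data known. Genes were named by rule: the 12 largest rises and falls on the log2 scale without overlap and with a mean FPKM of 5 or more in the higher group, the 12 largest differences of mean FPKM each way, the 3 largest called rises and falls per list, Cfb, the 5 smallest interaction p, and markers of other cell types. Other list members were added after their values were seen, and some members are not reported here. Gene C5 was matched as Hc, while Cxcl11 and Mx1 were not found. Promoters and positions came from RefSeq.

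The interaction of genotype and diabetes was fitted over all 14 samples. Alternatives covered the pseudocount, the filter, scaling, the trend, the samples in the fit, a replicate block, and leaving out each mouse, 17 in all for the Cfb-/- comparison. Totals without Kap was 1 of these, chosen after seeing the data. Median-ratio scaling divides each sample by its median ratio to the geometric mean over genes. In simulated data for this comparison over 11640 genes, 72 of 100 genes changed by 1 on the log2 scale and 98 of 100 changed by 2 were recovered, and 12 of 11440 unchanged genes were called. The simulation drew independent noise for each gene and changed 200 genes, as many up as down. It held no change of totals and no shift shared by genes of a mouse, so these rates may not hold for the real data, where 3776 genes were called. FPKM keeps no read totals, so counting error could not be given.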

Additional observations from a re-analysis of the deposited data

Results flagged for a closer look

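Of 236 group values tested in the 4 Cfb-/- diabetic mice, 8 had 1 mouse far from the other 3, where chance alone would set apart about 1 in 20, or 11.8. Groups of 3 mice were not tested. Cfb was at 1.13 FPKM in the third diabetic mouse and at 1.38 to 1.43 FPKM in the others. Per1, a clock gene, was at 3.32 FPKM in the same mouse against 4.51 to 4.73 FPKM. In the first diabetic mouse Umod, the main protein of the thick ascending limb, was at 787 FPKM against 991 to 1026 FPKM, and Angptl4 was at 21.6 FPKM against 29.9 to 32.0 FPKM. The neutrophil marker list of that mouse had a mean log2(FPKM + 0.1) of -1.99, with the others from -2.51 to -2.43. The second diabetic mouse was lowest in the list mean of sterol and fatty acid synthesis, at 3.51 against 3.64 to 3.67, and of ceramide synthesis, at 1.85 against 2.01 to 2.03. Ndufa4, a respiratory chain gene, was at 812 FPKM in the fourth diabetic mouse and at 746 to 752 FPKM in the others.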

How the results depend on the processing

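Of 196 named genes under 17 alternatives, 3144 of 3332 results kept their direction and their side of the threshold, 174 called ones lost the call, 14 gained it, and no called one changed sign. Scaling had the largest effect on counts of called genes. Against 2933 higher and 843 lower genes, median-ratio scaling gave 2080 and 1727, and quantile normalization 1585 and 1576. Totals without Kap, chosen after seeing the data, gave 3340 and 667. Over 2-fold, 1220 genes were higher as reported, 700 with a pseudocount of 1, 1910 with a filter of 0.1 FPKM in 3 mice, 1862 with no filter, where more genes were tested, and 630 after quantile normalization, which also gave 304 lower genes against 193. Leaving out 1 mouse, with fewer samples in the fit, gave 2088 to 2828 higher and 541 to 877 lower genes, the fewest lower ones without the first control mouse. The ranges over 2-fold were 1061 to 1378 and 157 to 229. The interaction called 0 genes as reported, 1 with a pseudocount of 0.01, and 0 to 3 when 1 mouse was left out. Its cause was not tested. The median of 12 of 38 lists moved by more than the spread between mice after median-ratio scaling and that of 17 after quantile normalization.

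Diabetic and control mice share replicate numbers in the labels, but the number alone did not pair them, since their deviations from the group means correlated at -0.039, 0.322, and 0.052 for numbers 1 to 3, and the first and the third fell below 0.1. With the replicate block 2822 genes were higher and 871 lower, 1307 and 202 over 2-fold, and 15 named genes lost the call, among them Slc5a2, Ces1g, and Kng2.

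FPKM keeps no read totals, so what depth limits is unknown, and fold changes of genes near 0.1 FPKM rest on the pseudocount.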

Other observations

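Gapdh, a glycolytic enzyme usually abundant in tissue, was listed at 1.98, 2.83, 2.23, and 1.78 FPKM in the diabetic and 2.05, 3.39, and 1.55 FPKM in the control Cfb-/- mice, and was singled out after its values were seen. Its genome copies of near-identical sequence can share reads, so this level is uncertain.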
